A study of Homo sapiens with 4 samples.

Results

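Connexins are the membrane proteins that build gap junctions, and the values described here are those of 6 connexin genes in a bladder cancer line: GJA1 (connexin 43), GJA3 (connexin 46), GJA4 (connexin 37), GJB2 (connexin 26), GJB5 (connexin 31.1) and GJC1 (connexin 45). The members were the probe sets whose platform annotation named exactly one of these genes. That gave 11 probe sets for 6 genes, of 41091 probe sets and 19775 genes named singly on the array. GJC1 had 4 of them, GJA3 and GJA4 had 2 each, and GJA1, GJB2 and GJB5 had 1 each. The list of genes was drawn up with the difference between the lines already known. The members' differences are therefore a description, no p-value is given for them, and nothing is supported with them.

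The cells were of the established line UM-UC-3, from a human bladder cancer, on 4 Affymetrix HG-U133 Plus 2.0 arrays. GFP arrays A and B came from cells stably transfected with GFP alone, and GFP-RhoGDI2 arrays A and B from cells stably transfected with GFP-tagged RhoGDI2, the product of ARHGDIB. Per the labels, the GFP cells were cotransfected with pBABE PURO for selection; for the GFP-RhoGDI2 cells only the text that describes a control names puromycin. Both lines were sorted by fluorescence and harvested in log phase growth. A and B were prepared at different times and pair the lines by preparation. The series set out to find genes regulated by RhoGDI2. The description text of the GFP-RhoGDI2 samples reads as a control transfection, while their titles, sources and genotype fields all name GFP-RhoGDI2, and the groups follow those fields. The sources used here do not say whether a line was 1 clone or a pool, nor whether A and B were transfected separately. Differences that arose when a line was made cannot be told apart from those due to the introduced gene. Arrays of whole cultures also cannot separate more cells with a transcript from more transcript per cell.

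A gap junction is a patch of channels between neighbouring cells. Connexins assemble into a ring in the membrane of one cell, the ring docks with a ring of the next cell, and ions and small metabolites then pass between the cytoplasms. Connexin 43 is the most widely expressed member of the family, turns over within hours, and is controlled by phosphorylation of its C-terminal tail and by partners such as ZO-1. Connexin 45 forms channels of low conductance and occurs in smooth muscle and the cardiac conduction system. Connexin 26 occurs in many epithelia and in the cochlea, connexin 31.1 in stratified epithelia, connexin 37 in endothelium and connexin 46 in the lens.

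The sequences before the start sites were read for 3 of these genes. That of GJA1 held less G and C than the others. RefSeq promoter windows (GRCh38.p14) matched GJA1, GJA3 and GJB2, 3 of the 6 members. Each line gives the 250 bases before the annotated start, 5′ to 3′ on the gene's strand, at chr6:121435396-121435645 (+) for GJA1, chr13:20161053-20161302 (-) for GJA3 and chr13:20192939-20193188 (-) for GJB2. Capitals mark matches to the AP-1 site TGANTCA in GJA1 and to the GC box GGGCGG, on either strand, in GJA3 and GJB2.
GJA1: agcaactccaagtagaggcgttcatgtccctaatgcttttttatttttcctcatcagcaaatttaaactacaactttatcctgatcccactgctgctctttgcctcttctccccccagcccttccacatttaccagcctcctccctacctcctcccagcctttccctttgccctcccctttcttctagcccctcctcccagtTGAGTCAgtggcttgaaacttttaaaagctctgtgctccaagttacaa
GJA3: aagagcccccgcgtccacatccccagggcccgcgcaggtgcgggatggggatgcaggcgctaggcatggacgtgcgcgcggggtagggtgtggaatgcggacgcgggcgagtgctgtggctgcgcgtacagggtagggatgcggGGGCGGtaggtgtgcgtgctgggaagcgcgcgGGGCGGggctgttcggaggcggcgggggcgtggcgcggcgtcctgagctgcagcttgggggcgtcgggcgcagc
GJB2: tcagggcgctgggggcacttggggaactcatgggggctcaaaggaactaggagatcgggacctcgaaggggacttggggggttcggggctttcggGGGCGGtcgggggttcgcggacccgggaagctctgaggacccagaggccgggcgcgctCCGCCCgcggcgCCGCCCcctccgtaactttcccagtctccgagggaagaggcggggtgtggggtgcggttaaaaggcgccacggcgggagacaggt
The GJA1 window held 1 AP-1 match, beginning 48 bases before the start, and no GC box. The GJA3 window held 2 GC boxes, 106 and 74 bases before the start, and the GJB2 window held 3, at 155, 97 and 85 bases. The windows of GJA3 and GJB2 had no AP-1 match. G and C made up 48.0% of the GJA1 window, 74.8% of that of GJA3 and 70.0% of that of GJB2, beside a median of 58.0% over 35114 windows of the same length. An AP-1 match occurred in 6.57% of those windows and a GC box in 42.6%. The TATA box TATAAA, the cyclic AMP element TGACGTCA and the T-box element GGTGTGA, searched on both strands, had no match in these 3 windows; they occurred in 10.7%, 1.65% and 2.76% of all windows. No match of one motif overlapped that of another. A match is a run of letters and not a shown binding site.

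Values are log2 expression from RMA, so a difference of 1 is a doubling. Levels of different probe sets are not set against each other. A probe set was tested when its 4-array mean reached 4.637, which is the median of such means over all probe sets. No detection calls were used, so a value under this filter level is low on the scale and not shown to be absent. Of the 11 member probe sets 6 passed, all 4 of GJC1, 1 of GJA3 and that of GJA1. The other 5, those of GJA4, GJB2 and GJB5 and 1 of GJA3, lay under it.

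GJA1 stood apart from the other 5 genes in the size of its difference. Its probe set, 201667_at, read 8.16 in GFP A, 8.14 in GFP B, 10.63 in GFP-RhoGDI2 A and 10.67 in GFP-RhoGDI2 B. Both GFP-RhoGDI2 arrays lay above both GFP arrays, and the arrays of a line lay within 0.04 of each other. The mean was 8.15 ± 0.02 in GFP and 10.65 ± 0.03 in GFP-RhoGDI2 (SD, n = 2). The difference was 2.47 in preparation A and 2.53 in preparation B, with a mean of 2.50 (SE 0.093) or 5.64-fold. With the 12123 tested genes ordered from the largest rise to the largest fall, GJA1 was number 28. GJA1 has a single probe set here, so no second one checks it. RefSeq also lists a GJA1 pseudogene, GJA1P1, and whether the probes match it was not tested. In the limma fit over all probe sets 1 of the 6 tested member probe sets, that of GJA1, was past the threshold of adjusted p under 0.05, beside 7.64% of all 27307 tested. This contrast was in view when the members were chosen, so nothing is read from that count.

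GJC1, the gene of connexin 45, was measured by 4 probe sets, and their differences were small and positive. The probe set with the highest mean, 228776_at, read 10.64 and 10.57 in GFP A and B and 10.85 and 10.95 in GFP-RhoGDI2 A and B. Its groups did not overlap, and its difference was 0.20 in preparation A and 0.38 in preparation B, a mean of 0.29 (SE 0.099) or 1.22-fold. Probe set 243502_at read 7.68 and 7.70 in GFP and 7.87 and 7.88 in GFP-RhoGDI2, a difference of 0.18 (SE 0.092) that was alike in both preparations. Probe set 228563_at read 7.86 and 8.18 in GFP and 8.36 and 8.23 in GFP-RhoGDI2. Its mean difference of 0.27 (SE 0.131) was made of 0.49 in preparation A and 0.05 in preparation B, so it came mostly from 1 preparation. Probe set 208460_at read 8.24 and 8.34 in GFP and 8.41 and 8.34 in GFP-RhoGDI2, and its groups overlapped (difference 0.08, SE 0.099). The mean of the 4 probe sets differed by 0.21.

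GJA3, the gene of the lens connexin 46, differed little between the lines. Its tested probe set, 239572_at, read 5.95 on both GFP arrays and 5.98 (A) and 5.90 (B) in GFP-RhoGDI2, a difference of -0.01 (SE 0.093). The 2 preparations differed in sign, at 0.03 and -0.05. Its other probe set, 208590_x_at, lay under the filter level at 4.37 to 4.47 on the 4 arrays. The GFP-RhoGDI2 arrays there lay inside the range of the GFP arrays.

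**Figure D1:**
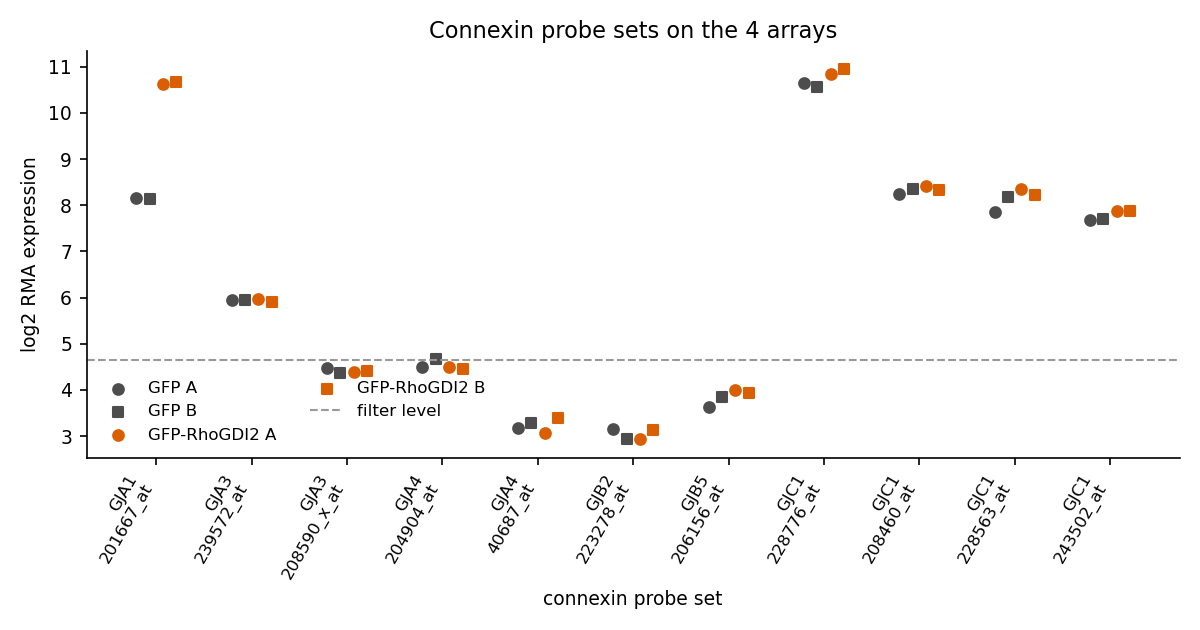
Log2 RMA expression of the 11 connexin probe sets, grouped by gene on the horizontal axis, with a circle for each preparation A array and a square for each preparation B array, grey for GFP and orange for GFP-RhoGDI2. The dashed line is the filter level of 4.637; the GJA1 arrays separate by line, from 8.15 to 10.65 in the means, and the arrays of the other probe sets lie close together.

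The remaining 3 genes lay under the filter level and had no SE from the fit. GJA4, the gene of connexin 37, read 4.50 and 4.66 in GFP and 4.50 and 4.45 in GFP-RhoGDI2 on probe set 204904_at, with both GFP-RhoGDI2 arrays just below both GFP arrays. Its second probe set, 40687_at, read 3.18 and 3.27 in GFP and 3.07 and 3.39 in GFP-RhoGDI2, with overlapping groups. The mean differences of these were -0.11 and -0.001. GJB2, the gene of connexin 26, read 3.16 and 2.94 in GFP and 2.93 and 3.12 in GFP-RhoGDI2. Its difference was -0.23 in preparation A and 0.18 in preparation B, opposite in sign, with a mean of -0.03. GJB5, the gene of connexin 31.1, read 3.62 and 3.85 in GFP and 3.998 and 3.93 in GFP-RhoGDI2. Its groups did not overlap, and its difference of 0.37 in preparation A and 0.08 in preparation B had a mean of 0.23 with an SD of 0.21 between the preparations. Over the 11 member probe sets, the groups did not overlap for 6 and the sign was the same in both preparations for 6; groups did not overlap for 43.9% of all probe sets on the array.

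The difference between the preparations was not used to choose the members, so it could be tested. For GJA1, B minus A was 0.01 (SE 0.093, limma adjusted p = 0.98), against 2.50 between the lines. Over the 6 tested member probe sets it ran from -0.04 for GJA3 to 0.10 for 228563_at of GJC1, the latter with an adjusted p of 0.79 in limma. Of the 6 tested member probe sets 0 were past the threshold and 0 had an unadjusted p under 0.05. Over all probe sets limma also called 0 (0%), with 3102 at an unadjusted p under 0.05, and it called 367 with an intensity trend in the moderation. With 1 array per line and preparation, whether the line difference itself varies by preparation could not be tested.

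Other connexins and the pannexins were measured on the same arrays; pannexins are a separate family of channel proteins that release ATP. Of 15 other connexin genes listed, 7 had a probe set naming them alone and 3 passed the filter. GJB1, the gene of connexin 32, read 5.70 and 5.21 in GFP and 5.62 and 5.42 in GFP-RhoGDI2 (difference 0.07, SE 0.110). GJD2, the gene of the neuronal connexin 36, read 5.26 and 5.22 in GFP and 4.88 and 5.01 in GFP-RhoGDI2 (-0.29, SE 0.099, adjusted p = 0.135 by limma). GJD3 differed by -0.09 (SE 0.092). Of these 3 genes limma called 0 and 1 had an unadjusted p under 0.05, with a median of -0.09. The other 4, GJA5, GJA10, GJB6 and GJD4, lay under the filter level. PANX1 was measured by 4 probe sets with differences from -0.15 to 0.26, and PANX2 by 3 with differences from -0.12 to 0.20. Their probe sets with the highest mean differed by 0.08 (SE 0.092) and 0.10 (SE 0.094). Limma called 0 of the 2 tested pannexin genes, with 0 at an unadjusted p under 0.05.

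**Figure D2:**
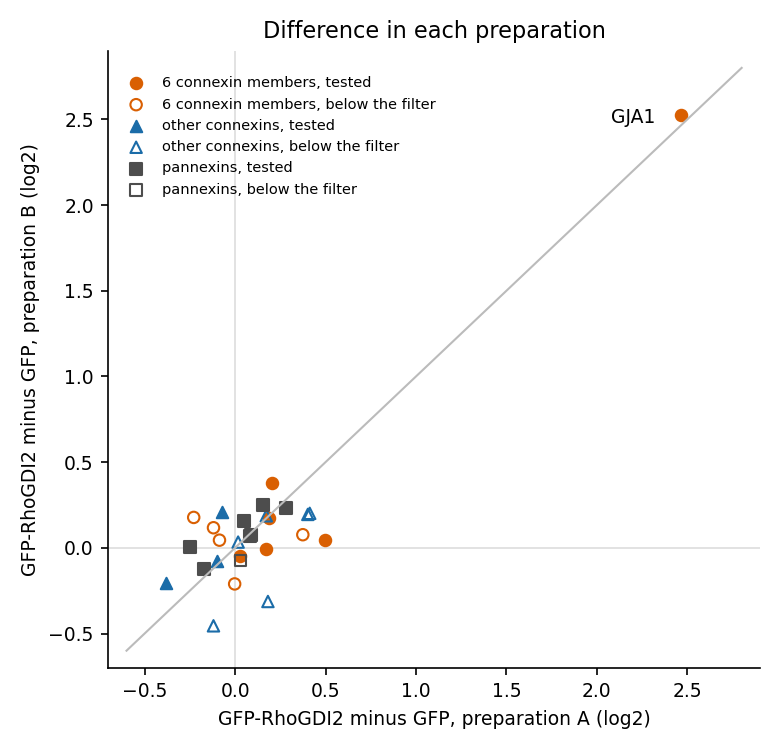
GFP-RhoGDI2 minus GFP in preparation A (horizontal, log2) against preparation B (vertical, log2), 1 point per probe set, filled where the probe set passed the filter and open where it did not; the diagonal marks equal differences. GJA1 lies at 2.47 and 2.53, and the other connexins and pannexins lie close to 0 on both axes, the farthest at 0.49 in preparation A and -0.45 in preparation B.

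Genes whose products carry connexin 43 to the membrane or hold it there were called higher in 4 cases and lower in 0. Of 24 such genes listed, 18 were tested, 8 of them with a positive difference. The median difference was -0.04, or 0.03 with the mean of each gene's probe sets and 0.01 without GFP-RhoGDI2 B and the block. Over all 12123 genes tested the median was -0.01 and 8.17% were called (4.83% higher and 3.35% lower). The counts of the lists in the next paragraphs stand beside the same shares. CAV1 encodes caveolin-1, a membrane scaffold that binds connexin 43. It read 11.38 on both GFP arrays and 12.15 and 12.25 on the GFP-RhoGDI2 arrays, and rose by 0.82 (SE 0.094, adjusted p = 0.00996 by limma), as did its second tested probe set. CAV2, encoding its partner caveolin-2, rose by 0.62 (SE 0.092, adjusted p = 0.0203 by limma), from 10.74 on both GFP arrays to 11.38 and 11.34. CDH2, encoding N-cadherin, the adhesion protein beside which gap junctions form, rose by 0.68 (SE 0.10, adjusted p = 0.0201 by limma), from 5.46 and 5.34 to 6.04 and 6.12. Of its 2 tested probe sets 1 was called, and the other differed by 0.49. TMEM65, a membrane protein that binds connexin 43 in heart muscle, rose by 0.44 (SE 0.094), with a limma adjusted p of 0.0497 that was 0.0629 without the preparation block and 0.00263 to 0.234 over 13 alternatives. Of its 2 tested probe sets 1 was called, and the other differed by 0.35. Over the list the calls were 5 higher and 1 lower with median centring, 4 and 2 at the upper quartile filter and 7 and 1 with an intensity trend. They were 5 higher and 0 lower with probe set means. With no filter, no block, quantile normalization or robust moderation they were 3 higher and 0 lower. Leaving out 1 array and the block left 2 of the 4 called without GFP A, 1 without GFP B, 1 without GFP-RhoGDI2 A and 0 without GFP-RhoGDI2 B. TJP1, the gene of ZO-1, which binds the end of connexin 43, read 10.67 and 10.58 in GFP and 10.53 and 10.46 in GFP-RhoGDI2 (-0.13, SE 0.092, adjusted p = 0.435 by limma). The other of its 2 tested probe sets differed by 0.11, and the mean of its probe sets by -0.006. CTNNB1, the gene of beta-catenin, differed by -0.13 (SE 0.101), but its 3 tested probe sets ran from -0.44 to 0.52 and 1 of them was called. CAV1 and CAV2 and the cadherin genes serve many functions beside gap junctions.

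Of 19 kinase and phosphatase genes that act on connexin 43, 17 were tested, and 1 was called higher and 0 lower. The median was 0.09, and 11 differences were positive. The calls were 3 higher and 1 lower at the upper quartile filter and 2 and 1 with an intensity trend. PRKCA encodes protein kinase C alpha, which phosphorylates the tail of connexin 43. It read 9.04 and 9.20 in GFP and 9.54 and 9.86 in GFP-RhoGDI2, a rise of 0.58 (SE 0.097, adjusted p = 0.0273 by limma). Its 4 tested probe sets ran from -0.01 to 0.58, and 1 was called. That call was lost without the block (limma adjusted p = 0.0663) and with the mean of its probe sets (0.0778, difference 0.27). It was also lost without each array in turn, and its adjusted p was 3.01e-05 to 0.254 over 13 alternatives.

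Of 18 genes of connexin 43 ubiquitination, endocytosis and degradation, all tested, 1 rose and 1 fell, with a median of 0.004 and 10 positive differences. The median was -0.03 with probe set means, -0.01 with quantile normalization, -0.05 without GFP B and -0.04 without GFP-RhoGDI2 B. MAP1LC3B encodes LC3B, a protein of autophagosome membranes, and rose by 0.65 (SE 0.101, adjusted p = 0.0224 by limma), from 9.02 and 8.92 to 9.57 and 9.68. SQSTM1 encodes p62, the receptor that brings ubiquitinated cargo to LC3. It read 9.65 and 9.80 in GFP and 9.21 and 9.26 in GFP-RhoGDI2, a fall with a difference of -0.49 (SE 0.094, adjusted p = 0.0393 by limma). The SQSTM1 call was lost without the block (limma adjusted p = 0.0575), with no filter (0.0764) and without each array in turn. It was also lost with the probe sets ending in _s_at or _x_at left out (limma adjusted p = 0.416, difference -0.16). Over 13 alternatives its limma adjusted p was 1.67e-04 to 0.416. The MAP1LC3B call was lost without GFP B (0.0707), GFP-RhoGDI2 A (0.0811) or GFP-RhoGDI2 B (0.127) and the block.

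Of 15 transcription factor genes listed as regulators of GJA1, all tested, 1 rose and 1 fell, with a median of -0.11 and 5 positive differences. FOSL2 encodes Fra-2, a subunit of AP-1, the factor whose letters occur in the GJA1 window printed above. It read 8.61 and 8.50 in GFP and 9.55 and 9.38 in GFP-RhoGDI2, and rose by 0.91 (SE 0.092, adjusted p = 0.00692 by limma). Of its 5 tested probe sets 3 were called, with differences from 0.14 to 0.91, and their mean differed by 0.58. The other AP-1 genes listed were not past the threshold: JUN differed by 0.02 (SE 0.093), FOS by -0.34 (SE 0.092), FOSL1 by -0.19 (SE 0.097) and JUNB by -0.15 (SE 0.104). MSX1, a homeobox repressor, fell from 7.69 and 7.76 to 7.19 and 7.04, a difference of -0.61 (SE 0.102, adjusted p = 0.0273 by limma). MSX1 had 1 tested probe set, which ends in _s_at. Its call was lost without each array in turn and the block, where the adjusted p was 0.0691 to 0.155. Without GFP-RhoGDI2 A and the block FOSL2 too was not called (0.0561). Whether these factors bind the GJA1 window in these cells was not tested.

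**Figure D3:**
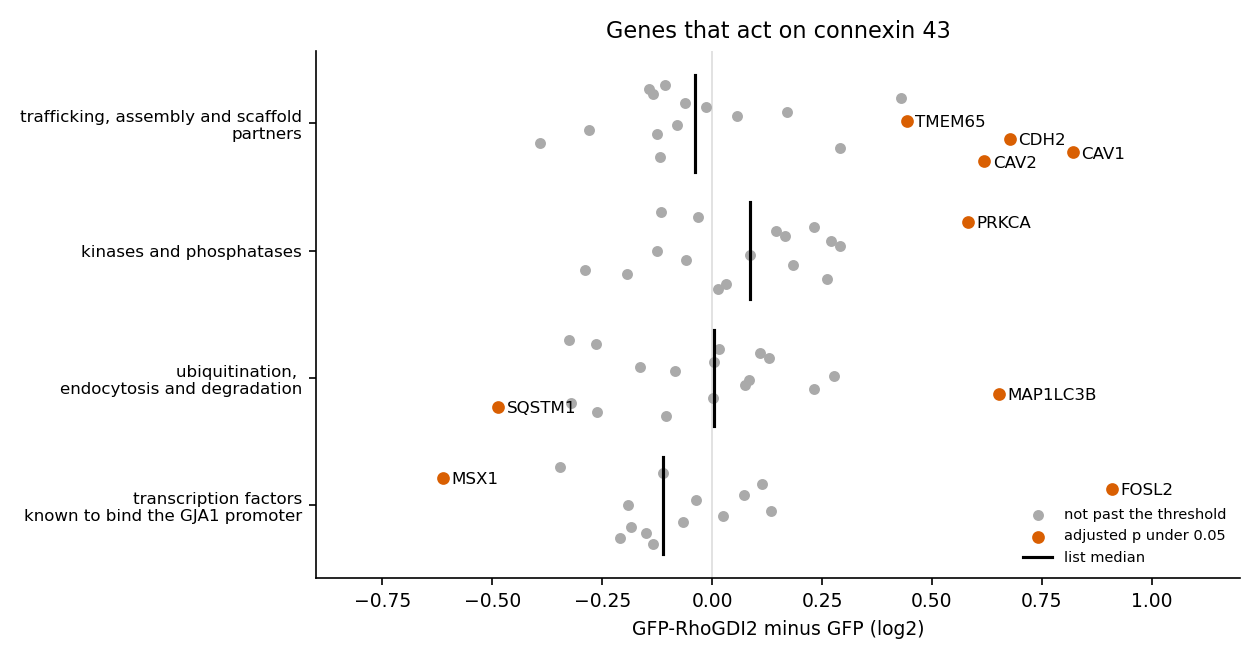
GFP-RhoGDI2 minus GFP (horizontal, log2) for each tested gene of the 4 lists of genes that act on connexin 43 or GJA1, with genes past adjusted p under 0.05 in orange and named, the rest in grey, and the list median as a black bar; the vertical scatter within a list has no meaning. The medians lie between -0.11 and 0.09, and the named genes run from -0.61 for MSX1 to 0.91 for FOSL2.

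The genes whose pattern was most like that of GJA1 were found by the Euclidean distance between log2 values centred on each gene's mean, over the 4 arrays. BDKRB1, the gene of a bradykinin receptor, was closest at a distance of 0.06. It read 7.03 and 7.08 in GFP and 9.51 and 9.59 in GFP-RhoGDI2, a difference of 2.49. CA8, a carbonic anhydrase-related protein gene, followed at 0.21, and NECTIN3, a cell adhesion gene of adherens junctions, at 0.23. VCAM1, the gene of an adhesion molecule bound by leukocyte integrins, and the zinc finger gene KLF12 were at 0.26 and 0.28. Their differences were 2.31 for CA8, 2.32 for NECTIN3, 2.48 for VCAM1 and 2.44 for KLF12. The mean of the KLF12 probe sets differed by 1.36. The GFP means of CA8 and VCAM1 lay under the filter level. With 4 arrays in 2 lines this likeness is mostly a like size of difference.

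**Figure D4:**
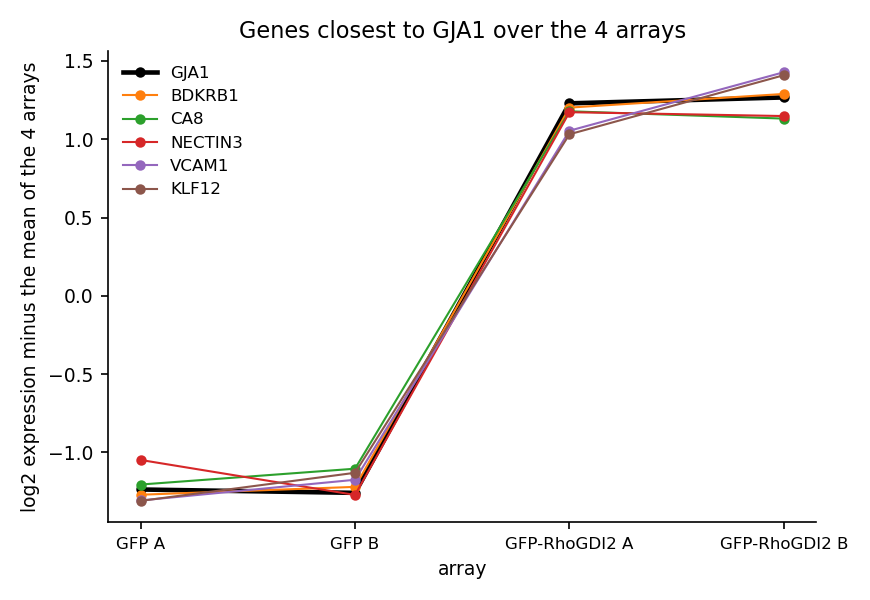
Log2 expression minus the mean of the 4 arrays (vertical) on each array (horizontal) for GJA1, in black, and the 5 genes closest to it, with lines joining the arrays only to guide the eye. All 6 genes are low on both GFP arrays and high on both GFP-RhoGDI2 arrays, with differences from 2.31 for CA8 to 2.50 for GJA1.

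In the RefSeq gene order (GRCh38.p14) GJA1 lies on chromosome 6 beside genes that did not all move with it. Of the 5 protein-coding genes on each side, 9 had a probe set naming them alone and 5 passed the filter. Of those tested 1 was called higher and 1 lower, beside 4.83% and 3.35% of all genes tested. MAN1A1, encoding a mannosidase that trims N-glycans, is 2 genes away. It read 4.16 and 4.34 in GFP and 9.06 and 9.18 in GFP-RhoGDI2, and rose by 4.87 (SE 0.093, adjusted p = 8.49e-05 by limma), with a GFP mean under the filter level. TBC1D32, the gene between them, lay under the filter level at 3.11 and 3.01 in GFP and 3.55 and 3.82 in GFP-RhoGDI2. On the other side, SERINC1 differed by 0.28 (SE 0.103) and SMPDL3A by 0.20 (SE 0.092), and neither was past the threshold. MCM9, a helicase gene 5 genes away, fell from 6.69 and 6.92 to 5.95 and 6.09 (-0.79, SE 0.093, adjusted p = 0.0113 by limma). The mean of its probe sets differed by -0.37. Its call was lost without GFP B (0.0546), GFP-RhoGDI2 A (0.102) or GFP-RhoGDI2 B (0.0723) and the block. These neighbours were looked at after their values were known.

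**Figure D5:**
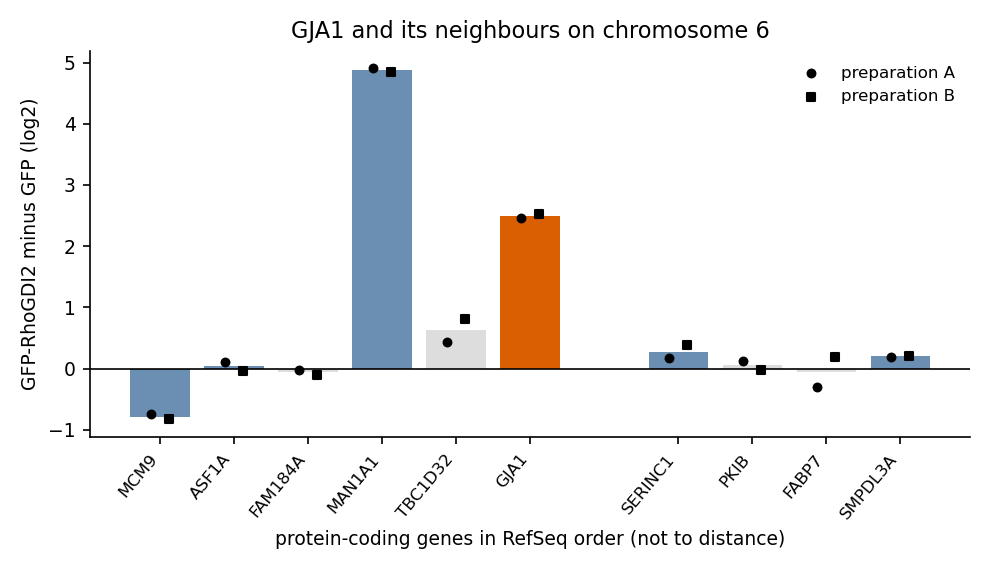
GFP-RhoGDI2 minus GFP (vertical, log2) for GJA1, in orange, and the 9 measured protein-coding genes among its 5 neighbours on each side in RefSeq order, with bars from 0 for the mean of the preparations, blue where the gene passed the filter and grey where it did not, and points for preparations A and B. MAN1A1 at 4.87 and GJA1 at 2.50 rise above the others, and MCM9 lies below 0 at -0.79.

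GJA3, GJB2, GJB5 and GJA4 have other connexin genes near them in the RefSeq order. GJA3 and GJB2 are adjacent, followed by GJB6, and GJB5 and GJA4 lie 3 genes apart. Of these 4 members only GJA3 passed the filter. No connexin gene was among the measured neighbours of GJC1.

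The introduced gene and the labelled cell type were checked on the same arrays. ARHGDIB was higher by 5.37 (SE 0.095) on its probe set with the highest mean, as labelled. Of its other tested probe sets one was higher by 0.94 (SE 0.10) and one differed by -0.02 with overlapping groups. The mean of its probe sets differed by 2.10. Of 8 urothelial markers measured only GATA3 and PPARG had means at or above the filter level, and the uroplakin genes UPK1A, UPK1B, UPK2 and UPK3A were under it. Of 6 epithelial markers 3 were at or above it, KRT7, KRT8 and KRT18, and EPCAM, CDH1 and KRT19 were under it. All 5 leukocyte markers measured and 4 of 5 endothelial ones were also under it. The endothelial PECAM1 and the erythroid HBB were at or above it. With no detection calls, a mean at or above the level does not show that a marker is expressed. Of 6 mesenchymal markers 5 were at or above it. Between the lines KRT8 (-1.23) and KRT18 (-0.59) were lower, and SNAI2 (2.03), CDH2 (0.68) and PPARG (1.27) were higher, all past the threshold in limma. PPARG had a GFP mean under the filter level and passed the filter only through the GFP-RhoGDI2 arrays. The KRT8 and KRT18 probe sets both end in _x_at. The other tested markers of these 3 lists were not past the threshold. They were KRT7 (-0.15), GATA3 (-0.20), VIM (0.18), ZEB1 (0.19) and FN1 (0.34, with opposite signs in the preparations). The KRT18 call was lost without each array in turn and the block, where its limma adjusted p was 0.072 to 0.12, and that of CDH2 without GFP B (0.0642), GFP-RhoGDI2 A (0.0804) or GFP-RhoGDI2 B (0.116). Their part in the GJA1 difference was not tested.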

How the data were processed

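The authors deposited log2 expression values, 1 per probe set. Per the submitters' processing notes these came from RMA, whose software and set of jointly normalized arrays the sources used here do not name. Array medians ran from 4.624 to 4.647, and the values were used as they stand. With the medians centred, 3395 probe sets were called in place of 2085. The number of arrays, 2 per group, limits the precision. After 62 control probe sets were left out, 54613 remained; genes were named only from the 41091 probe sets with 1 gene in the platform annotation.

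Differences are GFP-RhoGDI2 minus GFP, fitted with limma 3.58.1 (lmFit and eBayes, R 4.3.3); the preparation was a block because the labels pair A and B, and p-values were adjusted by Benjamini-Hochberg over 27307 probe sets. The fit had 1 residual degree of freedom, to which moderation added 4.71 (prior SD 0.101). The B minus A differences of the groups correlated at r = 0.264 across probe sets. A gene is represented by its tested probe set with the highest mean. The fit was tested on simulated data.

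The members and lists were chosen with earlier results of these data known. The rule named all members, every tested other connexin and pannexin, the called genes of each list (at most 4, by size), TJP1 and CAV1, the 5 genes closest to GJA1, and ARHGDIB. CTNNB1, the other AP-1 genes, the markers and the neighbours were named outside it, after their values were seen. Listed genes with no probe set naming them alone are not analysed here. Alternatives were no block, each array left out, 2 renormalizations, 2 filters, a floor and trended or robust moderation. Further ones were probe set means and no probe sets ending in _s_at or _x_at.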

Additional observations from a re-analysis of the deposited data

How the results depend on the processing

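The GJA1 difference stayed between 2.48 and 2.52 under the 10 alternatives run for it, and that of GJC1 between 0.21 and 0.34. Of 580 recomputed values 478 stayed on their side of the threshold or moved by less than the spread. No called gene changed sign, and 13 uncalled values and list medians did, all of them close to 0, from -0.18 to 0.08. GJB5 went to 0 with a floor at the filter level. Among the 29 genes recomputed, 50 values lost the call; without the block FZD2, PRKCA, SQSTM1 and TMEM65 did. Without the replicate block the preparations are not paired in the fit, and 1284 probe sets were called in place of 2085. The count was 3395 with median centring, 3435 at the upper quartile filter and 5721 with an intensity trend, and 390 to 913 with 1 array and the block left out. Between preparations, 367 were called with the trend in place of 0. Of the trafficking and scaffold genes 8 were called with the trend and 0 to 2 with an array left out. Of the kinases and phosphatases 0 were called without the block, 0 with probe set means, 3 with the trend, 4 at the upper quartile and 0 with any array left out. Of the degradation genes 1 was called without the block, 1 with no filter, 5 with the trend and 4 at the upper quartile. Without the probe sets ending in _s_at or _x_at 0 were called. With an array left out the median of that list ran from -0.05 to 0.01. Of the transcription factors 1 was called without the probe sets ending in _s_at or _x_at. The calls were 1 higher and 2 lower with the trend, and the same with probe set means. With an array left out the median of that list ran from -0.11 to -0.05. The causes were not tested, beyond fewer arrays or probe sets entering some fits. With no detection calls, differences of the probe sets under the filter level are limited by signal over background.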

Other observations

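Within 5 places of the other 5 connexin genes in RefSeq order, 25 protein-coding genes were measured and 18 tested. Over all genes tested 4.83% were called higher and 3.35% lower. Of the 18, 1 rose and 0 fell. It was FZD2, the gene of a Wnt receptor, 5 genes from GJC1, which read 6.02 and 5.81 in GFP and 6.69 and 6.40 in GFP-RhoGDI2 (0.63, SE 0.093, adjusted p = 0.0201 by limma). Its call was lost without the block (limma adjusted p = 0.055), with the mean of its probe sets (0.0671, difference 0.27) and without each array in turn, where the adjusted p was 0.0655 to 0.211. It was named after its value was seen.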
